A study of Mus musculus with 6 samples.

Results

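The genes described here are 32 genes of the hepatic acute phase response: secreted acute phase proteins, the proteins that carry or inhibit alongside them, and receptors and regulators of the IL-6 and IL-1 signals that induce them. They were chosen by gene symbol from a list of names that uses no level or fold change. Earlier results of these data were known when the list was made, so the list is not blind to them. All 32 were found by Ensembl ID among the 55416 genes of the table, and all 32 passed the filter on low counts that left 17083 genes for testing. RNA came from whole liver of male mice, with 3 libraries per genotype. Every mouse carried floxed Ephb2 (Ephb2flox/flox). The WT libraries came from mice without Cre, and the KO libraries from mice that also carried PdgfrbCreERT2, a tamoxifen-inducible Cre under the Pdgfrb promoter, which is active in hepatic stellate cells and other mural cells and not in hepatocytes. Both genotypes received tamoxifen on 5 days at an age of 8 to 10 weeks and then ate the CDAA high-fat diet for 8 weeks. This diet has no added choline, 45% of its energy as fat, 0.1% methionine and 1% cholesterol. Mice on another diet and Cre carriers with intact Ephb2 alleles were not analysed here, and therefore Cre itself and the deletion cannot be told apart. The labels number the samples 1 to 3 within a genotype and do not say whether each is 1 animal, and p-values here speak of the spread among these samples, which may be technical.

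The acute phase response is the change in hepatocyte secretion that follows injury or infection. IL-6 and related cytokines act through IL6RA and gp130 to activate STAT3, IL-1 and TNF act through NF-kB, and both induce C/EBP factors, which together raise transcription of serum amyloid A, orosomucoid, haptoglobin, fibrinogen and other plasma proteins. SOCS3 and the IL-1 receptor antagonist IL1RN restrain the signals. In fatty liver disease the same proteins are markers of hepatic inflammation.

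Total counts ran from 21160690 to 26339251 per library. The targeted gene Ephb2 was at 9.46, 8.28 and 12.4 CPM (counts relative to the TMM-scaled library size) in WT replicates 1 to 3 and at 6.01, 8.87 and 6.95 CPM in KO replicates 1 to 3. The genotypes overlapped (exact permutation, two-sided, p = 0.2, n = 3 each), and this design cannot give a p below 0.1. Hepatocyte marker genes were abundant in every library, at 58606 to 73590 CPM in sum over 15 genes.

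The acute phase genes differed far more between libraries than most genes did. The highest library exceeded the lowest by more than 2-fold in 26 of the 32 genes (81.2%), against 11.9% of all genes tested, and by more than 4-fold in 12 of them (37.5%), against 1.23%. The median log2 range was 1.55 for the 32 genes and 0.50 for all genes tested (a range is the log2 ratio of the highest to the lowest library after adding 0.5 CPM). In 26 of the 32 genes the 3 highest libraries were WT replicates 1 and 3 and KO replicate 2. The same 3 libraries were the highest in 10.6% of all genes tested. This set of libraries was read from the 32 genes themselves, so the count is a description. The 32 genes together took 4.04, 2.20 and 4.97% of all WT counts (replicates 1 to 3) and 2.53, 5.47 and 2.34% of all KO counts (replicates 1 to 3). In whole liver, fewer cells of a type and less RNA per cell cannot be told apart.

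**Figure D1:**
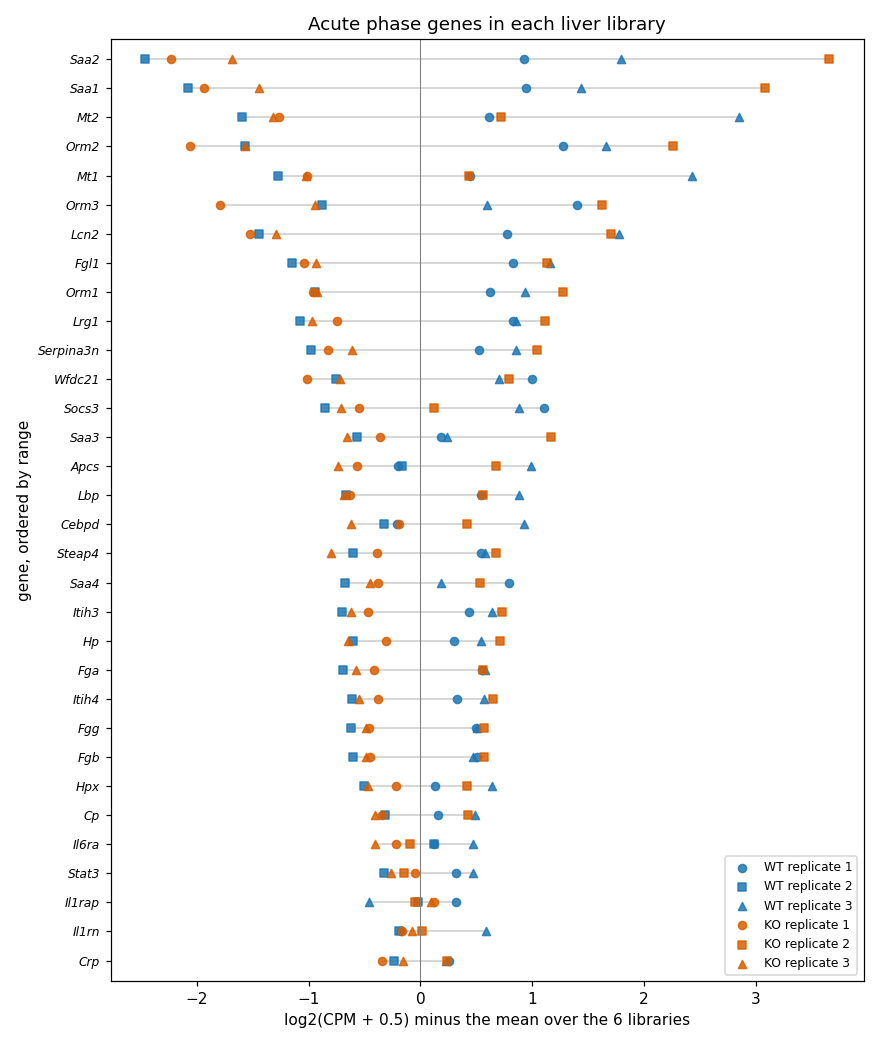
Level of each of the 32 genes in each library, as log2(CPM + 0.5) minus the gene's own mean over the 6 libraries; colour gives the genotype, symbol the replicate and grey lines the range. WT replicates 1 and 3 and KO replicate 2 lie to the right of the other libraries in 26 of 32 genes, and the range shrinks from Saa2 at the top to Crp at the bottom.

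**Figure D2:**
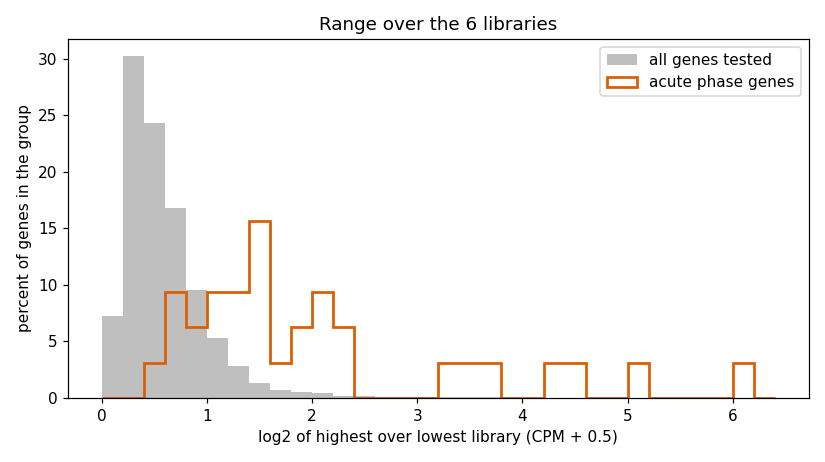
Distribution of the log2 range over the 6 libraries, in percent of genes, for all 17083 genes tested (grey) and the 32 acute phase genes (orange line). The median lies at 0.50 for all genes and at 1.55 for the acute phase genes.

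Serum amyloid A1 and A2, small apolipoproteins of high-density lipoprotein that hepatocytes secrete during inflammation, held the widest ranges of the group. Saa2 was at 278, 26.1 and 508 CPM in WT replicates 1 to 3 and at 30.7, 1842 and 44.9 CPM in KO replicates 1 to 3. After adding 0.5 CPM, KO replicate 2 was thus 69.3-fold above WT replicate 2, and 99.99% of all genes tested had a smaller range. Saa1 was at 423, 51.6 and 595 CPM across the WT libraries against 57.3, 1857 and 80.4 CPM across the KO libraries, a 35.6-fold range. The KO genotype held both the highest library and 2 of the 3 lowest for each gene. Saa1 (ENSMUSG00000074115, minus strand, 46740497 to 46742980) and Saa2 (ENSMUSG00000057465, plus strand, 46751790 to 46754313) lie head to head on chromosome 7 of GRCm38, 8809 bases apart. Their coding sequences are 95.1% identical with a longest shared run of 73 bases, so reads can be shared between them. Summed over both genes the levels were 701, 77.7 and 1103 CPM across the WT libraries against 88.0, 3699 and 125 CPM across the KO libraries, a 47.3-fold range. The ratio of Saa1 to Saa2, per length of transcript, went from 2.12 in WT replicate 2 to 1.08 in KO replicate 2, so the 2 genes approached equal levels where both were highest.

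The other genes of the Saa cluster varied less. Saa3, which macrophages and fat cells make as well as liver, was at 29.7, 17.4 and 30.8 CPM across the WT libraries against 58.9 CPM in KO replicate 2, with 20.2 and 16.3 CPM in the other KO libraries. Its ratio to Saa1 per length was 0.386 in KO replicate 1 and 0.0348 in KO replicate 2. Saa4, which is made constitutively and rides on lipoproteins, ranged 2.76-fold, from 104 CPM in WT replicate 2 to 289 CPM in WT replicate 1. Saa3 and Saa4 lie on the minus strand beside Saa1, and their coding sequences share 75.9 and 65.0% of bases with it.

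The sequences before the transcription starts of Saa1 and Saa2 are shown because these 2 genes led the group. They come from RefSeq (GRCm38.p6), run 5′ to 3′ on the strand of the gene and stop at the base before the start, or earlier where the GENCODE gene begins earlier. Capitals mark matches to 4 motifs searched on both strands. TTCNNNGAA is the STAT motif and TTNNGNAA that of C/EBP. The type 2 IL-6 response element was searched as CTGGGAA, and NF-kB by its kappa-B motif. The STAT motif can overlap the IL-6 element and the C/EBP motif.
Saa2, chr7:46751583-46751789, plus strand: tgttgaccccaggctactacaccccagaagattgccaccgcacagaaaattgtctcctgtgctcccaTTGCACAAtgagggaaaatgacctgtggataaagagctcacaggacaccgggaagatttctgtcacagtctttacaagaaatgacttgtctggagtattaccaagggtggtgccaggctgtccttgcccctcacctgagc
Saa1, chr7:46742981-46743230, minus strand: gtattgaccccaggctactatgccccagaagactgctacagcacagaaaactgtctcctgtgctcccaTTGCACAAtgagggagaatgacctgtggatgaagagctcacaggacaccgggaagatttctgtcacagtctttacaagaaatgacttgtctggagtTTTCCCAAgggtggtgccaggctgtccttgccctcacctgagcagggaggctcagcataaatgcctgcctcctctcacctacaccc
Over the 206 bases that align, the 2 sequences are 94.7% identical. Both hold the C/EBP match TTGCACAA, which begins 182 bases before the start of Saa1 and 183 before that of Saa2, and Saa1 holds a further match, TTTCCCAA, 86 bases before the start.

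Among the carrier and binding proteins, all 11 genes were highest in the same 3 libraries. Orosomucoids are acidic glycoproteins that bind drugs and lipids in plasma. Orm2 was at 548, 76.1 and 717 CPM across the WT libraries against 53.9, 1083 and 76.0 CPM across the KO libraries, a 19.9-fold range. Orm1 was at 1010, 341 and 1251 CPM across the WT libraries against 336, 1583 and 346 CPM across the KO libraries, a 4.70-fold range. Orm3 was the least abundant of the family, at 21.9, 4.12 and 12.4 CPM across the WT libraries against 1.96, 25.8 and 3.92 CPM across the KO libraries. For each of the 3 genes KO replicate 2 was the highest and KO replicate 1 the lowest library. The ratio of Orm2 to Orm1 per length was 0.160 to 0.223 in WT replicate 2 and KO replicates 1 and 3, and 0.543 to 0.684 in the other libraries. The 3 genes lie in one block on chromosome 4 (63344560 to 63365878), and their coding sequences are 86.0 to 89.9% identical, so some reads may be shared. Their sum ranged 6.86-fold, from 392 CPM in KO replicate 1 to 2692 CPM in KO replicate 2.

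The Orm2 promoter is printed as that of the carrier gene with the widest range after Mt2. Its matches, TTGCGCAA and TTTCCCAA, are both C/EBP matches, 120 and 108 bases before the start. It was chosen after the matches were seen.
Orm2, chr4:63362199-63362448, plus strand: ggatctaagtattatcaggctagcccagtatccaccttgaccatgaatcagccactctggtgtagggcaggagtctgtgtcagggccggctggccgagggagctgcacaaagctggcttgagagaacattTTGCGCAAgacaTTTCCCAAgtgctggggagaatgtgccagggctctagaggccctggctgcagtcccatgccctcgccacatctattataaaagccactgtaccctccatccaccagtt

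Lipocalin 2, a siderophore-binding protein made by hepatocytes and neutrophils, was at 1145, 246 and 2285 CPM across the WT libraries against 233, 2175 and 274 CPM across the KO libraries. Lcn2 thus ranged 9.80-fold, and its highest libraries of the 2 genotypes lay close together. Haptoglobin and hemopexin, which bind free haemoglobin and haem, were the most abundant of the 32 genes per length, with medians of 7540 and 12963 length-scaled units (TPM, which sum to the same total in each library, from the counts and the length of the principal GENCODE transcript). Their ranges were 2.56-fold for Hp (2769 to 7096 CPM) and 2.21-fold for Hpx (6077 to 13444 CPM), narrower than those of the orosomucoids and Lcn2 but wider than those of 95.7 and 92.3% of all genes tested. Lbp, which presents lipopolysaccharide to CD14, ranged 2.95-fold, Steap4, a metalloreductase, 2.78-fold, and Cp, the copper carrier ceruloplasmin, 1.87-fold.

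The metallothioneins, small metal-binding proteins induced by IL-6, glucocorticoids and zinc, differed from the amyloids in which library led. Mt2 was at 125, 26.8 and 593 CPM across the WT libraries against 33.9, 135 and 32.5 CPM across the KO libraries, a 21.7-fold range. Mt1 was at 159, 48.0 and 629 CPM across the WT libraries against 57.6, 158 and 57.2 CPM across the KO libraries, a 13.0-fold range. WT replicate 3 stood alone above the rest in both, while KO replicate 2, the highest library for Saa1 and Saa2, was close to WT replicate 1. The 2 genes are neighbours on chromosome 8, with 5513 bases between them. The Mt2 promoter is shown as that of the third gene by range, and its single match, TTGCAGAA, is a C/EBP match 12 bases before the start.
Mt2, chr8:94172368-94172617, plus strand: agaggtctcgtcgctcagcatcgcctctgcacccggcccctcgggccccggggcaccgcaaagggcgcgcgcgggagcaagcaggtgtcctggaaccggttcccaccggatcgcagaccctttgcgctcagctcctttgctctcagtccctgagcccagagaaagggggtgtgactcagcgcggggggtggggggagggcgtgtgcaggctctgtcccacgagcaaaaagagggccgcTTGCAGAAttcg

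**Figure D3:**
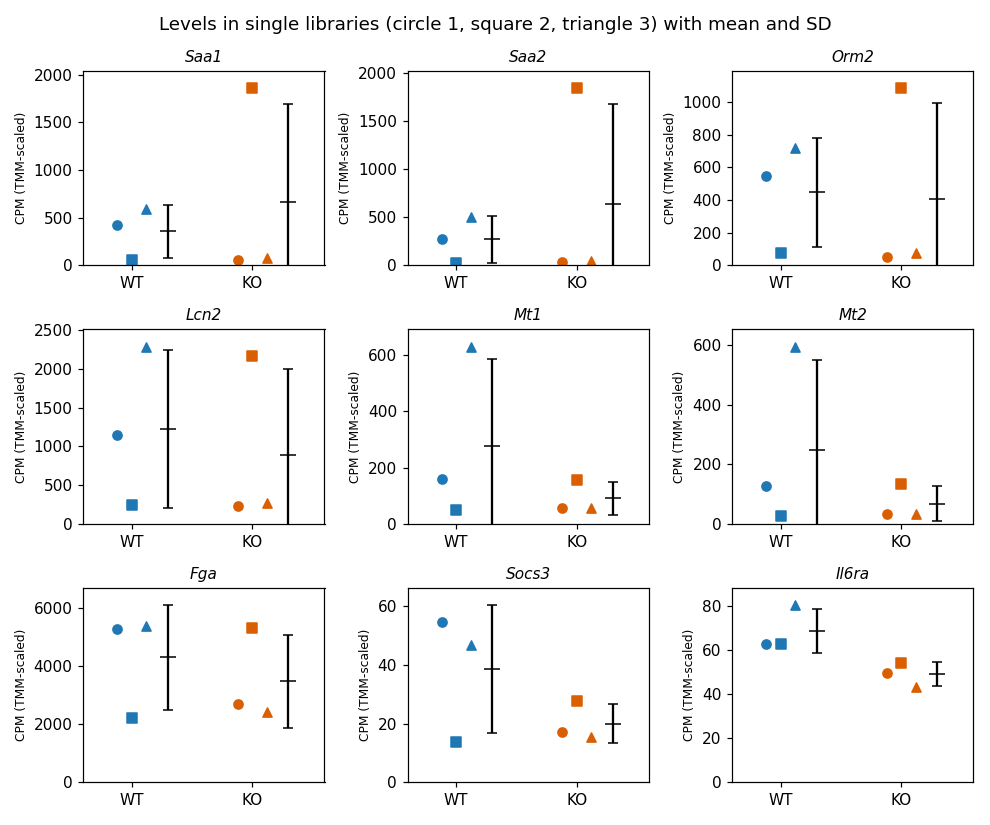
CPM (TMM-scaled, linear axis from 0) of 9 of the genes in each WT (blue) and KO (orange) library, with the mean and SD of each genotype (n = 3) in black; SD bars are not drawn below 0. Saa1, Saa2 and Orm2 were highest in KO replicate 2, Mt1 and Mt2 in WT replicate 3, and the genotypes did not overlap for Il6ra.

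The secreted inhibitors, fibrinogen chains and related proteins moved together across the libraries, with all 9 genes highest in WT replicates 1 and 3 and KO replicate 2. Fgl1, a hepatocyte-secreted fibrinogen-like protein, was at 498, 127 and 628 CPM across the WT libraries against 137, 615 and 147 CPM across the KO libraries. Lrg1, a leucine-rich glycoprotein that modifies TGF-beta signalling, was at 1391, 371 and 1415 CPM across the WT libraries against 469, 1702 and 400 CPM across the KO libraries. These values put the high libraries 4.93-fold (Fgl1) and 4.59-fold (Lrg1) above the low ones at the extremes, with little spread among the high libraries. Serpina3n, a protease inhibitor, was at 851, 300 and 1069 CPM across the WT libraries against 334, 1216 and 387 CPM across the KO libraries. Wfdc21, a small secreted protein with a protease-inhibitor fold, was at 127, 37.3 and 104 CPM across the WT libraries against 31.2, 110 and 38.2 CPM across the KO libraries. The ranges of these genes were 4.05-fold and 4.04-fold.

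The 3 fibrinogen chains kept nearly fixed proportions while their summed level changed. Their sum was 11845, 5262 and 11890 CPM across the WT libraries against 6093, 12181 and 5723 CPM across the KO libraries, a 2.31-fold range. Per length, Fgb stood at 0.413 to 0.472 of Fga and Fgg at 0.916 to 1.02 of Fga over the 6 libraries. The 3 genes share a block on chromosome 3, with Fga between Fgg (11026 bases away) and Fgb (6513 bases away). Itih3 and Itih4, heavy chains of the inter-alpha-trypsin inhibitor that stabilise hyaluronan matrix, are neighbours on chromosome 14 and kept a ratio of 0.570 to 0.653, with ranges of 2.69-fold and 2.39-fold. The fixed proportions of fibrinogen and Itih chains stand beside the shifting ratios of the Saa and Orm copies. The Fgb promoter is printed because it holds STAT (TTCGAGGAA, 162 bases before the start), IL-6 element (CTGGGAA, 91 bases) and C/EBP matches, as that of Steap4 also does. It was chosen after the matches were seen, and its last capitals are the part before the start of a C/EBP match that runs across it.
Fgb, chr3:83049864-83050113, minus strand: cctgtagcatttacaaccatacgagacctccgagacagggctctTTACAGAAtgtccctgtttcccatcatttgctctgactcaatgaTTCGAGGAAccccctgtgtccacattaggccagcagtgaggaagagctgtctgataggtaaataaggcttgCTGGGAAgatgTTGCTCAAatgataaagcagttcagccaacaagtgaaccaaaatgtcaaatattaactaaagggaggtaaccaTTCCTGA

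The pentraxins, ring-shaped pattern-recognition proteins of plasma, had narrower ranges than Saa1 and Saa2. Crp, C-reactive protein, which is a weak acute phase gene in mice, had the narrowest range of the 32 genes, 1.52-fold, from 176 to 268 CPM. Apcs, serum amyloid P component, the main pentraxin induced in mice, was at 147, 151 and 335 CPM across the WT libraries against 114, 270 and 101 CPM across the KO libraries. WT replicate 1, a high library for Saa1 and Orm2, was at the level of WT replicate 2 for Apcs.

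The signalling genes followed the secreted proteins least: 1 of 6, Socs3, was highest in the same 3 libraries. Socs3, the feedback inhibitor induced by STAT3, was at 54.7, 13.8 and 46.9 CPM across the WT libraries against 17.1, 27.6 and 15.3 CPM across the KO libraries, a 3.87-fold range. KO replicate 2, which held the most Saa1, Saa2 and Orm1, held less Socs3 than WT replicates 1 and 3. Cebpd, a C/EBP factor induced by IL-6, was at 20.01, 18.5 and 44.7 CPM across the WT libraries against 20.3, 31.1 and 14.9 CPM across the KO libraries, so WT replicate 1 was at the level of the low libraries. Stat3, the transcription factor that IL-6 activates by phosphorylation, was at 265, 169 and 295 CPM across the WT libraries against 205, 191 and 177 CPM across the KO libraries. Here KO replicate 2 did not stand out from the other KO libraries. Il1rn ranged 1.71-fold, from 39.7 to 68.5 CPM, and Il1rap, the coreceptor of IL-1, 1.72-fold, with its lowest value in WT replicate 3. Genes on the opposite strand overlap Stat3 (Stat5a), Cebpd (Spidr), Il1rap (Gm20319) and Cp (Hps3), and since no strand setting is given, reads of such pairs could be shared.

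Windows from 250 bases before to 50 after a start were in the RefSeq table for 26 of the 32 genes, 29 windows in all. The C/EBP motif was in 20 of the 29 windows (69.0%) and in 40.7% of all 32851 windows of that length. The STAT motif was in 6 (20.7%) against 8.30% of all, the IL-6 element in 9 (31.0%) against 11.1%, and the NF-kB motif in 0 against 1.20%. With so low a share in all windows, 0 of 29 does not set the acute phase genes apart. Other forms of the kappa-B motif were not searched. Windows of the Saa and Orm copies resemble each other, and 3 windows belong to Il1rn, so the 29 are not independent. The 6 STAT matches fell to Apcs, Fga, Fgb, Itih4, Socs3 and Steap4, and the 2 genes with the widest ranges, Saa2 and Saa1, held none. A match is a run of letters and not a shown binding site.

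Between the genotypes, edgeR's quasi-likelihood test called 0 of the 32 genes after Benjamini-Hochberg adjustment over all genes, against 0% of the 17083 tested (smallest adjusted p = 0.850). At an unadjusted p under 0.05 it found 1 of the 32 genes, Il6ra, against 5.19% of all genes. DESeq2 called 0 of the 32 (smallest adjusted p = 0.448), against 0.0567% of all genes. The estimates leaned one way without passing the test: 28 of the 32 log2 fold changes were below 0, against 51.0% of all genes, with a median of -0.25 against -0.0048. The 32 signs are not independent, because 26 of the genes share their 3 highest libraries, WT replicates 1 and 3 and KO replicate 2. The count is therefore a description and not a test of genotype. With library size as the only scaling the 28 stayed, while 67.1% of all genes lay above 0. The count below 0 was 17 of 32 without WT replicate 3, 20 without KO replicate 3, 23 without KO replicate 1, 25 without WT replicate 1, 28 without WT replicate 2 and 31 without KO replicate 2. In 1 gene every KO library lay below every WT library: it was lower in KO liver, against 4.90% of all genes in that direction. None lay higher without overlap, against 6.21%. The median of the 32 fold changes was -0.81 without KO replicate 2, -0.55 without WT replicate 2 and -0.13 without WT replicate 1. Leaving out KO replicate 1 gave -0.081, KO replicate 3 gave -0.060, and WT replicate 3 gave -0.051. An unadjusted p under 0.05 was found for 16 of the 32 genes without KO replicate 2 (against 5.18% of all genes), for 5 without WT replicate 2 (against 10.7%) and for 1 without each of the other 4 libraries, and 0 passed after adjustment in each case. KO replicate 2 is the 1 KO library among the 3 highest in 26 of these genes, so leaving it out removes their highest KO values.

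Il6ra, the receptor subunit that binds IL-6, was the gene without overlap. It was at 62.8, 62.7 and 80.2 CPM across the WT libraries against 49.6, 54.2 and 43.4 CPM across the KO libraries, or 68.6 ± 10.0 and 49.1 ± 5.43 CPM (SD, n = 3 each). Its log2 fold change was -0.48 (95% interval -0.78 to -0.18, unadjusted p = 0.00572 and adjusted p = 0.850 by edgeR). All 3 KO libraries lay below all 3 WT libraries, which 4.9% of all genes tested also showed, against 3.12% of the 32 genes. The fold change stayed between -0.56 and -0.36 with any 1 library left out. A gene without overlap keeps its direction when 1 library is left out, so this adds no support. Il6ra (ENSMUSG00000027947) lies on chromosome 3 of GRCm38 (89864059 to 89913196, minus strand).

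The intervals of the genes with wide ranges spanned several log2 units. Saa1 was at 357 ± 278 CPM across the WT libraries against 665 ± 1032 CPM among KO libraries (SD, n = 3 each). The log2 fold change was 0.90 with a 95% interval from -2.10 to 3.90. Without KO replicate 2 the fold change was -2.38. Saa2 went from 1.24 to -2.84 in the same way, and Saa3 from 0.30 to -0.51. The sign of the 3 amyloid genes thus rested on that library. Mt2 (-1.88, interval -4.21 to 0.45) and Mt1 (-1.62, interval -3.53 to 0.30) had the lowest estimates, and both lay near -0.18 without WT replicate 3. Socs3 was at 38.5 ± 21.7 CPM across the WT libraries against 20.005 ± 6.65 CPM among KO libraries (SD, n = 3 each), and its estimate was -0.94 (interval -1.99 to 0.12). Stat3 stood at -0.35 (interval -0.80 to 0.10). For Crp, the steadiest of the secreted proteins, the interval ran from -0.60 to 0.27.

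**Figure D4:**
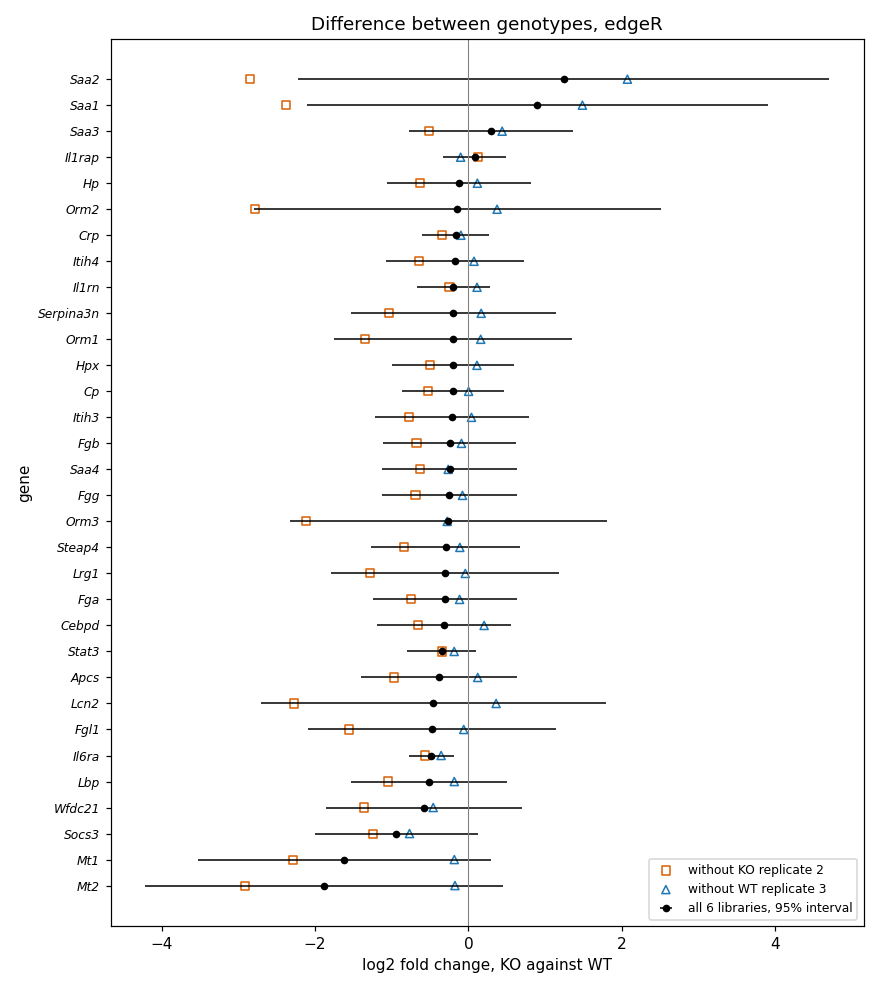
Log2 fold change of KO against WT for each of the 32 genes from edgeR, with 95% intervals (black), and the estimate without KO replicate 2 (orange squares) or without WT replicate 3 (blue triangles). The interval excludes 0 for Il6ra alone, and without KO replicate 2 Saa1 and Saa2 move from above 0 to -2.38 and -2.84.

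Other genes of the response were read from lists in the same fit, and edgeR called 0 of their genes. Among 25 further acute phase proteins, 14 were highest in WT replicates 1 and 3 and KO replicate 2 (against 10.6% of all genes), 13 ranged over 2-fold, and 6 lay higher and 19 lower in KO liver. The widest in that list were Cd14, the lipopolysaccharide coreceptor, at 31.1 to 323 CPM, the hepcidin copy Hamp2, at 0.0957 to 2.004 CPM, and A2m, alpha-2-macroglobulin, at 0.305 to 2.82 CPM. The lowest levels of Hamp2 and A2m lie below the 0.5 CPM added, so their ranges depend on it and rest on few reads. Hamp2 went the other way, with its highest levels in WT replicate 2 and KO replicates 1 and 3. Genes that inflammation lowers in liver did likewise in part: 4 of 17 were highest in WT replicate 2 and KO replicates 1 and 3, against 9.29% of all genes. Cyp3a11, a drug-oxidising cytochrome, was at 1749, 4147 and 1070 CPM across the WT libraries against 4134, 1318 and 2990 CPM across the KO libraries. Serpina6, the corticosteroid carrier, ranged 3.76-fold and Cyp2c29 3.51-fold, with the same 3 libraries highest. In the same list 3 genes were highest in WT replicates 1 and 3 and KO replicate 2.

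Most upstream genes varied less than the secreted proteins. In the IL-6 and JAK-STAT list, 27 of 30 genes were tested, 3 ranged over 2-fold and 6 were highest in the same 3 libraries as the acute phase proteins. Il6 itself had 1 to 4 counts per library and did not pass the filter. Cish, a STAT5-induced inhibitor, ranged 3.20-fold, the kinase Pim1 2.16-fold and the IL-22 receptor subunit Il22ra1 2.15-fold. Of these, Il22ra1 alone had the same 3 highest libraries. In the IL-1 and NF-kB list, 9 of 22 genes had them and 5 ranged over 2-fold. The widest ranges were those of the decoy receptor Il1r2 (4.03-fold, 0.336 to 2.87 CPM), the neutrophil chemokine Cxcl1 (3.58-fold) and Irak3 (3.32-fold), an inhibitor of IL-1 receptor signalling. The lowest level of Il1r2 lies below the 0.5 CPM added, so its fold depends on it. None of 12 transcription factors of acute phase genes had those 3 libraries as their highest, and 2 ranged over 2-fold. Cebpb was at 196, 145 and 268 CPM across the WT libraries against 133, 120 and 117 CPM across the KO libraries, without overlap. It was the 1 factor of 12 without overlap, and 4.9% of all genes lay lower in KO liver in this way. In the IL-6 and JAK-STAT list 2 genes lay lower and 2 higher without overlap, against 4.9 and 6.21% of all genes. In the IL-1 and NF-kB list 1 lay lower and 0 higher. Ppara and Foxa2 ranged 2.25-fold and 1.67-fold. The log2 fold change of Cebpb was -0.72 (unadjusted p = 0.00768, adjusted p = 0.850 by edgeR). In the IL-6, IL-1 and factor lists, 7 genes of 27, 5 of 22 and 3 of 12 lay higher in KO liver, against 49.0% of all genes, with medians of -0.051, -0.14 and -0.17.

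Neutrophil markers moved with the same libraries as the acute phase genes. Of 15 such markers 14 were tested, and 13 of the 14 were highest in WT replicates 1 and 3 and KO replicate 2. The share of all genes tested was 10.6%, which also stands beside the counts of the lists that follow. The summed level of the markers was 97.9, 43.6 and 209 CPM across the WT libraries against 56.9, 136 and 51.3 CPM across the KO libraries. None of the 15 was at 0 in every library. Mpo, Ngp and Elane, which encode granule proteins of developing neutrophils, ranged 24.9-fold, 23.1-fold and 10.4-fold. Their levels in WT replicate 2, the lowest library, were 0.336, 1.01 and 0.042 CPM. These lie near or below the 0.5 CPM added, so the folds depend on it. Csf3r and Clec4d, the narrowest of the 14, ranged 1.52-fold and 1.44-fold. Of 11 Kupffer cell markers 5 had these 3 highest libraries, and the list summed to 690 to 1346 CPM among WT libraries and 469 to 800 CPM among KO libraries. Its widest ranges were those of Cd207 (8.17-fold), Marco (6.02-fold) and Clec4f (5.89-fold), of which Cd207 had these 3 highest libraries and Marco and Clec4f did not. Of 11 monocyte and macrophage markers 6 had them, with sums of 1926 to 2579 CPM (WT) and 2027 to 2528 CPM (KO). The widest ranges there were those of Chil3 (12.5-fold) and Adgre1 (1.89-fold), which had them, and of Ly6c2 (2.17-fold), which did not. Of 15 hepatocyte markers 1 had them (against 10.6% of all genes), with sums of 66497 to 73534 CPM (WT) and 58606 to 73590 CPM (KO). The hepatocyte markers with the widest ranges, Cyp2e1 (3.75-fold), Tdo2 (2.17-fold) and Pck1 (2.17-fold), did not. Alb and Apob dominate the hepatocyte sum, at 32565 and 15759 of 58606 CPM in KO replicate 2. Taken singly, the hepatocyte markers had a median log2 range of 0.73, against 0.50 for all genes tested. Of the neutrophil markers 13 of 14 lay lower in KO liver and of the Kupffer markers 11 of 11, against 51% of all genes. Their median log2 fold changes were -0.74 and -0.77. For monocyte and macrophage markers it was 5 of 11 (median 0.013) and for hepatocyte markers 13 of 15 (-0.079). edgeR called 0 in these lists, with 2 Kupffer and 0 neutrophil markers at an unadjusted p under 0.05, against 5.19% of all genes. These markers are not independent, so the counts are a description. The part of these cell types in the acute phase levels was not tested.

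**Figure D5:**
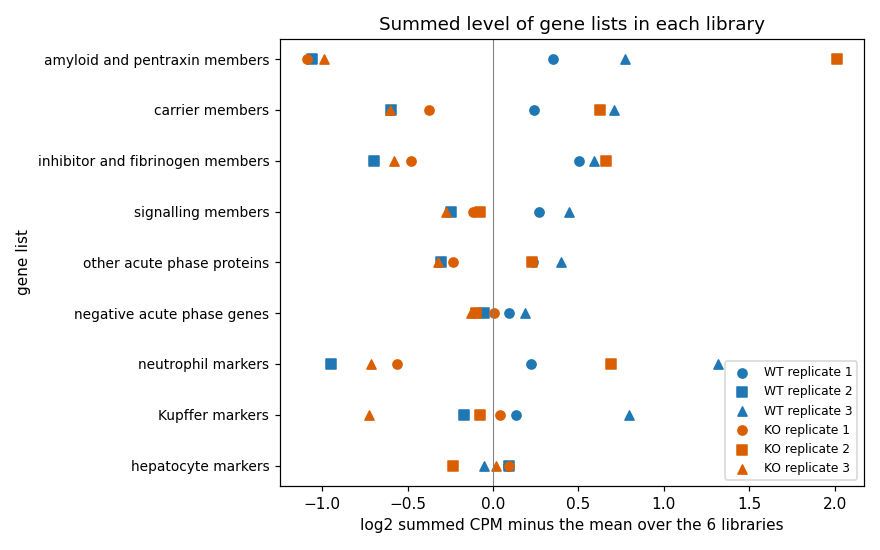
Summed CPM of gene lists in each library, on a log2 scale relative to the mean over the 6 libraries; colour gives the genotype and symbol the replicate. The 3 lists of secreted acute phase proteins and the neutrophil markers split WT replicates 1 and 3 and KO replicate 2 from the rest. The list of other acute phase proteins does so too. Signalling members split the same way by less, with KO replicate 2 at 398 CPM and KO replicate 1 at 387 CPM. The hepatocyte sum, most of it Alb, spans less.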

How the data were processed

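Polyadenylated RNA of 6 whole-liver samples was sequenced with a directional kit, per the labels' protocols. The authors deposited raw counts per Ensembl gene with 1 column per sample. Per the submitters' processing notes, the tools were STAR 2.7.6a, featureCounts 1.6.3 and DESeq2 1.30.0, on GRCm38 (mm10). Which annotation release, strand setting and filters were used is not given in the sources used here. Symbols, positions and lengths came from GENCODE M21 on GRCm38, which matched 52083 of 55416 IDs (94.0%), and promoter sequences from RefSeq (GRCm38.p6).

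Counts were tested with edgeR 4.0.16 in R 4.3.3 (glmQLFit, glmQLFTest, TMM, filterByExpr with a minimum count of 10 and total of 15, genotype as the sole term), with Benjamini-Hochberg adjustment over all genes at 0.05. SEs and 95% intervals derive from the F statistic. The code was tested on simulated counts. Ranges used a pseudocount of 0.5 CPM. No 2 libraries agreed within sampling noise (chi-square per degree of freedom 11.4 to 77.1). DESeq2 1.42.0, limma-voom (limma 3.58.1), other scalings and filters, a replicate block and leaving out each library were alternatives. The genes, their roles, the other lists and the motifs were chosen with earlier results of these data known, and so was the rule for printing values: the 12 genes with the widest range, 2 per role class, Saa1, Saa2, Orm1, Orm2, Orm3, Stat3, Cebpd, Socs3 and Il6ra, and 3 genes per other list by range. Genes and promoters named beyond that rule (Apcs, Cebpb's values, Saa3, Saa4 and others given as ranges, and the promoters of Orm2 and Fgb) were chosen after their values were seen. Depth ran from 21160690 to 26339251 counts, at which fold changes (log2) had a median SE of 0.159.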

Additional observations from a re-analysis of the deposited data

How the results depend on the processing

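The count of acute phase genes called between the genotypes was 0 under every alternative run, and so was that of the other lists, whose alternatives were chosen after seeing the data, as were those for the 3 highest libraries. edgeR called 0 genes of the whole table in the main setting, 3 without a filter on low counts and 2 without WT replicate 3 (0 to 2 over the libraries left out), and DESeq2 called 8; none was an acute phase gene. The median log2 fold change of the 32 genes, -0.25, stayed negative under every alternative and went from -0.81 to -0.051 over the libraries left out. With DESeq2 size factors, upper-quartile scaling and library size alone, 28 of 32 estimates were below 0 (17 to 31 over the libraries left out), and under these scalings the same 12 genes had the widest ranges and 26 kept the same 3 highest libraries. The replicate block gave 0 calls and a median of -0.38. The labels state no pairing by number. Same-numbered libraries correlated at -0.028, -0.49 and -0.34 in their deviations from the genotype means over 17083 genes, and no library correlated best with its own number. The deviations sum to 0 within a genotype, so these correlations depend on each other and cannot exclude a pairing. Saa1 and Saa2 changed sign with limma-voom (-0.28 and -0.25) and under the block (-1.33 and -1.74). Leaving out 1 library at a time changed the sign of 19 of the 32 genes. The ranges were -2.38 to 1.49 for Saa1, -2.84 to 2.07 for Saa2, -0.51 to 0.61 for Saa3, -0.64 to 0.15 for Saa4, -1.35 to 0.16 for Orm1, -2.78 to 0.37 for Orm2, -2.11 to 0.36 for Orm3, -0.97 to 0.12 for Apcs, -2.28 to 0.36 for Lcn2, -0.63 to 0.13 for Hp, -0.50 to 0.11 for Hpx, -0.53 to 0.0025 for Cp, -1.04 to 0.17 for Serpina3n, -0.78 to 0.040 for Itih3, -0.64 to 0.073 for Itih4, -1.29 to 0.035 for Lrg1, -0.65 to 0.20 for Cebpd, -0.10 to 0.28 for Il1rap and -0.33 to 0.11 for Il1rn. The cause was not tested. With 3 libraries per genotype, the 95% interval of Saa1 ran from -2.10 to 3.90, so large differences in either direction are not excluded.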

Other observations

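Bile duct and stellate cell markers were read from the same fit. Of 10 bile duct markers 0 had WT replicates 1 and 3 and KO replicate 2 as their highest libraries, against 10.6% of all genes. The other 3 libraries were highest in 3 of the 10, against 9.29% of all genes. Pkhd1, the gene of fibrocystin, ranged 2.20-fold, the adhesion molecule Epcam 1.95-fold and Spp1, osteopontin, 1.90-fold. Of the 10, 9 lay higher in KO liver, against 49% of all genes, with a median log2 fold change of 0.37 against -0.0048. edgeR called 0 after adjustment, with 5 at an unadjusted p under 0.05, against 5.19% of all genes. Markers of 1 cell type are not independent, so these counts are a description. Of 11 stellate markers, 3 had the libraries of the acute phase genes as their highest (against 10.6% of all genes), 3 lay higher and 8 lower in KO liver, and 0 were called, with 1 at an unadjusted p under 0.05. Their widest ranges were those of the nerve growth factor receptor Ngfr (2.02-fold), Rgs5 (1.98-fold), a pericyte regulator of G proteins, and Pdgfrb (1.91-fold), whose promoter drives the Cre.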
